A study of Homo sapiens with 6 samples.

Results

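The nuclear genes for subunits of the mitochondrial respiratory chain and ATP synthase were followed after knockout of MSLN, the gene for the cell surface protein mesothelin, in the human acute myeloid leukaemia line NOMO-1. Members were chosen by gene symbol: the NDUFA, NDUFB, NDUFC, NDUFS and NDUFV genes of complex I, SDHA to SDHD of complex II, the UQCR genes and CYC1 of complex III, the COX4 to COX8 genes of complex IV, the ATP5 genes of complex V, and CYCS, the carrier cytochrome c. The rule found 86 of the 11363 listed genes. SDHAP1 and SDHAP4, which are pseudogenes, were dropped, and 84 members remained: 37 in complex I, 4 in complex II, 10 in complex III, 13 in complex IV, 19 in complex V and 1 carrier. NDUFA4 and NDUFA4L2 carry complex I names but were placed with complex IV, since NDUFA4 is a subunit of that complex. COX7A2L, an assembly protein of supercomplexes, the inhibitor ATP5IF1 and the readthrough gene ATP5MF-PTCD1 stayed in by their symbols. ATP5MGL, COX4I2, COX6A2, COX6B2, COX7A1, COX7B2, COX8C and NDUFC2-KCTD14 fall under the same symbols and were not analysed here.

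The samples were 3 libraries of parental cells (genotype WT) and 3 of cells with genotype MSLN-KO, with no treatment or time course in the labels. They do not say whether the knockout cells were a clone or a pool, or whether the libraries of a genotype came from separate cultures, so the p-values measure the spread between these libraries, which may be technical. Values are TMM-scaled CPM, which are read counts scaled to the size of the library and corrected for its composition. Each library held between 23665824 and 30804446 reads in the listed genes, and the median gene had between 800 and 1080 reads. Every gene in the table had 4.9 CPM or more in at least 3 libraries.

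MSLN itself was read at 153.2, 122.9 and 105.9 CPM in the WT libraries and at 45.7, 46.9 and 45.3 CPM in the MSLN-KO libraries, a fall to 36.1% of the WT mean (log2 change -1.43, SE 0.10, adjusted p = 1.5e-07). The groups did not overlap, and transcript remained in the knockout. The 9 markers set for a monocytic leukaemia were all listed. Of these, 6 fell and 1 rose, where 23.3% of all listed genes fell and 22.4% rose. The 1 that rose was CD33, from 56.7 to 74.7 CPM on average, and PTPRC and SPI1 were not called. The summed level of the 9 was 16833 to 17532 CPM in the WT libraries and 7501 to 7936 CPM in the MSLN-KO libraries. Most of that sum was lysozyme (LYZ), which fell from 14540 to 6081 CPM on average. Myeloperoxidase (MPO) fell from 744.4 to 45.7 CPM on average. Of the other cell types, 1 of 4 T and NK markers was listed (NKG7, 37.1 to 40.9 CPM in WT and 29.3 to 34.8 in MSLN-KO), 1 of 2 endothelial (PECAM1, 496.5 to 533.3 and 379.1 to 387.2) and 1 of 3 epithelial (KRT18, 7.97 to 9.71 and 7.07 to 9.05), and no B cell, erythroid or stromal marker. The part of these marker shifts in the subunit results was not tested.

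Complexes I and II pass electrons from NADH and succinate to coenzyme Q, complex III hands them to cytochrome c, and complex IV gives them to oxygen. Complexes I, III and IV pump protons across the inner mitochondrial membrane, and complex V uses the gradient to make ATP. Apart from complex II, each complex joins a few subunits encoded by mitochondrial DNA with many encoded in the nucleus, and acute myeloid leukaemia cells are known for their reliance on this oxidative metabolism.

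Most subunit genes were lower in MSLN-KO cells, by small amounts. Of the 84 members, 50 fell, 6 rose and 28 were not called, where a call is a limma adjusted p under 0.05 over all 11363 listed genes. The share that fell was 59.5%, against 23.3% of all listed genes, and the share that rose was 7.1%, against 22.4%. The median log2 change of the members was -0.19, a fold of 0.88, while that of all listed genes was 0.01. Changes were shallow: before rounding, 4 of the 84 members had a log2 change of at least 0.5 in size, against 1517 of the 11363 listed genes. The 4 were COX5A, NDUFB9, COX6C and NDUFA4L2, and 1 of them had a change of at least 1.

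The shift was visible in single libraries. The median member, set against its WT mean, stood at 0.00, -0.06 and 0.06 (log2) in the WT libraries and at -0.19, -0.20 and -0.19 in the MSLN-KO libraries. Every MSLN-KO library lay below every WT library for 54 members, against 28.1% of all listed genes, and above for 8, against 26.6%. In 22 members the groups overlapped. The summed CPM of all members was 8885, 8560 and 9229 in WT and 7831, 7787 and 7696 in MSLN-KO, that is 8891 ± 335 against 7771 ± 68.7 (SD, n = 3 each), or 87.4% of WT. In bulk RNA, fewer cells carrying a transcript and less of it per cell cannot be told apart.

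The libraries differed in their weight. WT replicate 3 was the highest WT library for 55 members (65.5%, against 29.6% of all listed genes), and WT replicate 2 was the lowest for 57 (67.9%, against 36.5%). Without WT replicate 3, 31 members fell instead of 50, and without WT replicate 2, 51 did. The loss was not particular to WT replicate 3. Fewer also fell without MSLN-KO replicate 1 (34), 2 (35) or 3 (44) and without WT replicate 1 (39). No called member changed its direction in any of the alternative analyses, and 30 stayed called in each one that held them, 27 lower and 3 higher. The 3 were NDUFA4L2, COX7A2L and ATP5MC2. NDUFA4L2 was listed only through its MSLN-KO libraries, so its rise, here and in the counts of genes that rose, was bound up with being listed.

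Within bins of transcript level and annotated transcript length, the share of members that fell stayed above that of the listed genes. Among genes with a mean of 15 to 300 CPM, 59.5% of 79 members fell, against 24.0% of 8156 listed genes. Among genes whose principal transcript is under 1 kb, 59.0% of 39 members fell, against 28.9% of 523 listed genes. The same share was 66.7% of the 9 members with principal transcripts of 4 kb or more, against 21.9% of 3949. The length is that of the annotated principal transcript, the longest where several rank equally. It need not be the transcript these cells express, so the bins do not sort genes by the length of their RNA here.

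**Figure D1:**
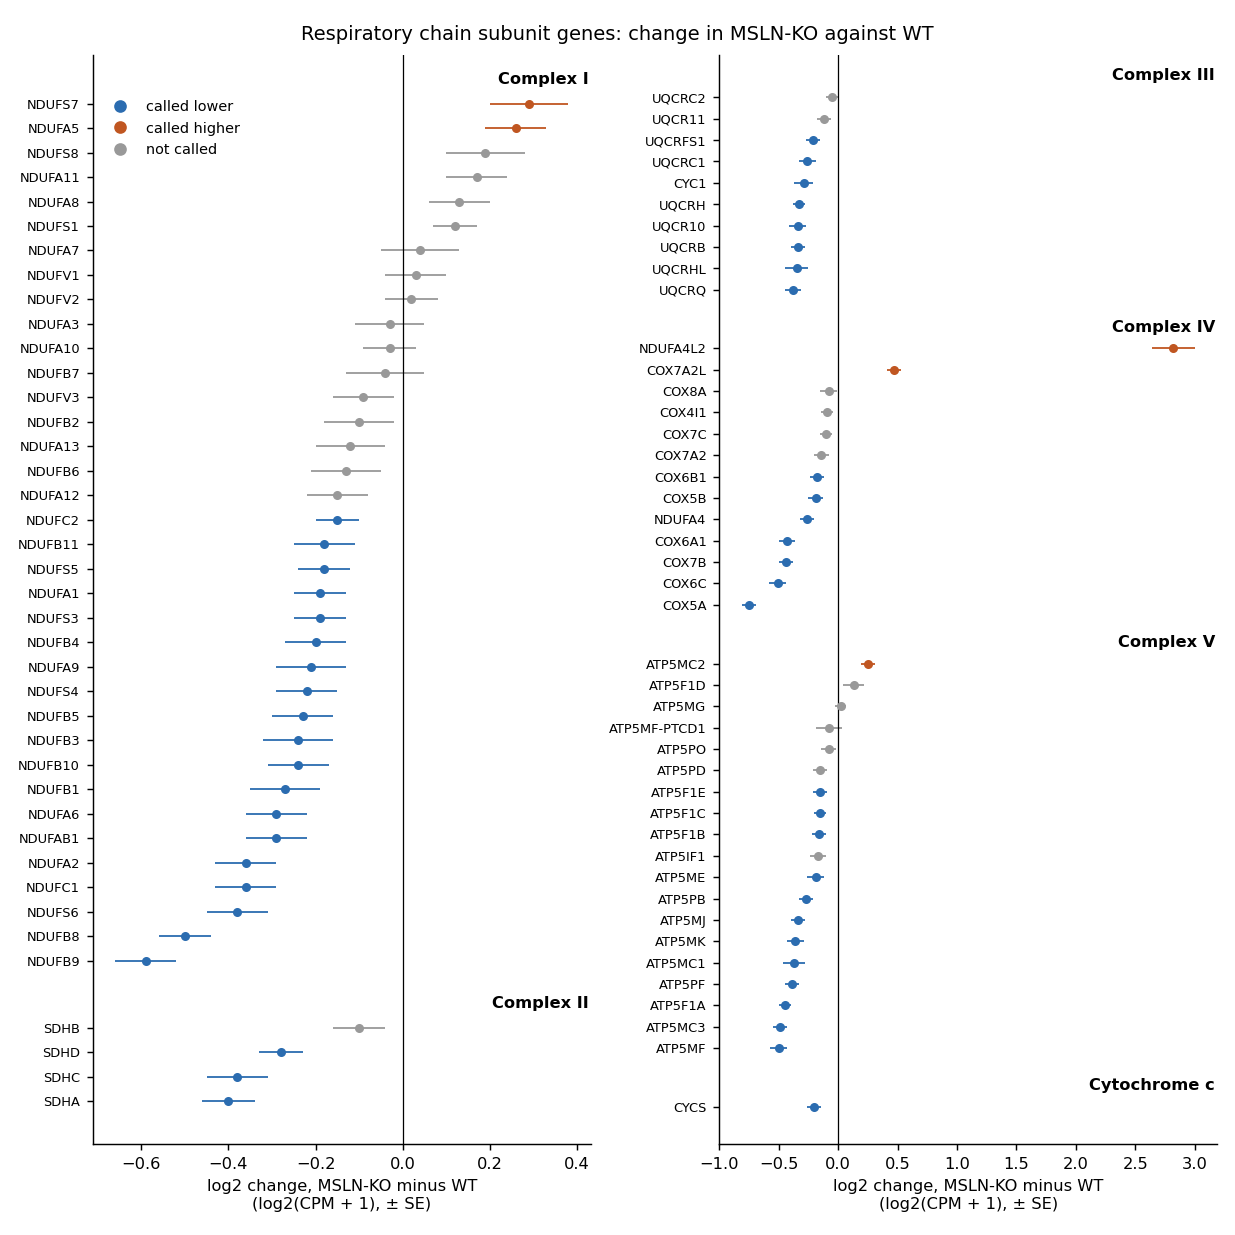
Log2 change in MSLN-KO against WT for the subunit genes, by complex, as points with the standard error from limma as bars (horizontal axis, log2(CPM + 1) scale; the panels have different ranges). Blue points were called lower, orange higher and grey were not called; most points lie left of 0, and NDUFA4L2 lies at 2.82.

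Promoters of many respiratory chain genes are known to hold sites for NRF1, for ETS factors such as GABPA, and for YY1, so these letters were searched on both strands in RefSeq promoter windows (build GRCh38.p14) from 250 bases before to 50 bases after the start. The table held 67 members, in 80 windows, and lacked 17. The NRF1 letters GCGCATGC were in 20% of member windows, in 4.97% of the 13086 windows of listed genes and in 3.05% of all 35116 windows. The ETS letters CCGGAAG were in 27.5%, 18.5% and 10.3%, and the YY1 letters AAGATGGC in 16.2%, 5.17% and 2.89%, in the same order. In all, 38 of the 67 members held at least 1 of the 3 motifs. A match is a description of these letters and not a bound site.

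Subunit genes that fell and genes that rose both held the NRF1 letters. Of the 15 members with a match, 10 fell, 3 rose and 2 were not called, and the median log2 change was -0.19 with a match and -0.18 without. For ETS, 12 of 21 fell and none rose (9 not called; medians -0.19 and -0.18), and for YY1, 7 of 12 fell and 1 rose (4 not called; medians -0.21 and -0.18). The 30 bases around the match nearest the start are shown for the 13 called members, from the strongest fall to the strongest rise, because the same letters sit in both groups. Each is written along its gene's strand (plus or minus), with the NRF1 letters, in either orientation or as overlapping matches, in capitals.
COX6A1, chr12:120437928-120437957, plus: ggaggtgcagaGCGCATGCtctctcttgcc
ATP5PF, chr21:25735156-25735185, minus: ccactcaaagaGCGCATGCgtacagagcaa
NDUFS6, chr5:1801350-1801379, plus: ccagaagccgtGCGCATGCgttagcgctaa
NDUFA6, chr22:42090920-42090949, minus: tctgtagatgaGCATGCGCagcacccaccg
SDHD, chr11:112086754-112086783, plus: gctgtgtttGCGCATGCGCgacgggtgtgc
NDUFB4, chr3:120596168-120596197, plus: gagcacttcGCGCATGCGCatatcaccgag
CYCS, chr7:25125411-25125440, minus: catgctcgccaGCATGCGCgcgcaggtcct
ATP5ME, chr4:674336-674365, minus: cgccgctgacgGCGCATGCgtgcgcccagc
COX5B, chr2:97645915-97645944, plus: ggcagagctggGCATGCGCaatttccgccc
ATP5F1C, chr10:7788146-7788175, plus: ggagcttcgGCGCATGCGCgctgaggcctg
ATP5MC2, chr12:53676105-53676134, minus: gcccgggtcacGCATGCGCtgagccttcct
NDUFA5, chr7:123557958-123557987, minus: gtatgcccatcGCGCATGCgtcaatttttc
NDUFS7, chr19:1383823-1383852, plus: ttccggtttccGCATGCGCtccgagccgct

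The sites lay between 20 and 174 bases before the RefSeq start. In SDHD, NDUFB4 and ATP5F1C the 2 orientations overlapped in a run of 10 bases. The transcripts of the factors themselves were not called: NRF1 was at 11.9 ± 0.459 CPM in WT and 11.8 ± 0.305 in MSLN-KO (adjusted p = 0.91), GABPA at 62.4 ± 1.95 and 67.8 ± 1.83 (adjusted p = 0.1), and YY1 at 150.9 ± 4.82 and 154.2 ± 3.03 (adjusted p = 0.66; SD, n = 3 each). With the median change of the neighbours within 5 Mb subtracted, NRF1 was called lower (log2 change -0.25, adjusted p = 0.026, range over alternatives 0.026 to 0.97) and GABPA higher (0.15, adjusted p = 0.041, range 0.041 to 0.27).

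The members lay deepest below WT in complexes II and III. The median log2 change was -0.33 over the 4 genes of complex II and -0.31 over the 10 of complex III, against -0.15 in complex I, -0.18 in complex IV and -0.17 in complex V. Of the listed members, 3 of 4 fell in complex II, 8 of 10 in complex III, 19 of 37 in complex I, 7 of 13 in complex IV and 12 of 19 in complex V, that is 75.0%, 80.0%, 51.4%, 53.8% and 63.2%, where 23.3% of all listed genes fell. Genes that rose were 3 in complex I (8.1%), 2 in complex IV (15.4%) and 1 in complex V (5.3%), where 22.4% of all listed genes rose. The medians of complexes II and III were both below those of the other 3 in 17 of 17 analyses, the reported one included, with complex II between -0.34 and -0.29 and complex III between -0.34 and -0.26. Many of the 17 could hardly change this order. The low-value filter, the variance trend and the replicate block left the medians as they were, and rescaling moves all genes nearly alike. The difference between complexes was not tested, since genes of a complex are not replicates of it.

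**Figure D2:**
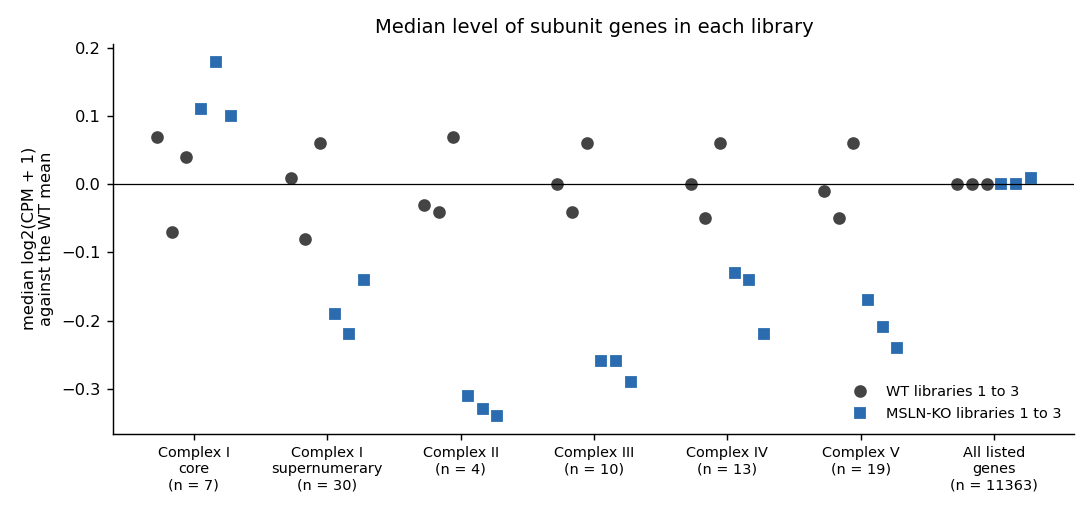
Median log2(CPM + 1) of the members of each complex in each library, set against the WT mean of each gene (vertical axis, log2), with WT libraries as grey circles and MSLN-KO libraries as blue squares, in replicate order. In complexes II and III the MSLN-KO libraries lie between -0.34 and -0.26, while for the core genes of complex I they lie above 0, and for all listed genes the 6 libraries lie at 0.00 or 0.01.

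Complex I, the NADH dehydrogenase, had different values in its core and its supernumerary subunits, and the difference between them was not tested. Its 7 nuclear core genes, which build the arm that oxidises NADH and carries electrons to coenzyme Q, had a median log2 change of 0.12, with 1 lower (14.3%), 2 higher (28.6%) and 4 not called, shares near the 23.3% and 22.4% of all listed genes. Its 30 supernumerary genes, which surround and stabilise that core, had a median of -0.19, with 18 lower (60.0%), 1 higher (3.3%) and 11 not called. The summed CPM of the core genes was 656, 619 and 655 in WT and 690, 691 and 664 in MSLN-KO, or 105.9% of WT. That of the supernumerary genes was 1609, 1505 and 1647 in WT and 1365, 1360 and 1393 in MSLN-KO, or 86.5%. In both sums the groups did not overlap, and they moved in opposite directions.

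The count in complex I depended on the libraries and on the scaling. In place of 19 genes, 8 were called lower without WT replicate 3, 12 without WT replicate 1, 10 without MSLN-KO replicate 1 and 9 without MSLN-KO replicate 2. Those called higher were 1 instead of 3 without MSLN-KO replicate 1 or 2, and no core gene was called in either direction in those analyses. No core gene was called lower without WT replicate 1 or 3, and 1 was called higher instead of 2 without WT replicate 2. The supernumerary genes called lower were 8 to 17 with 1 library left out, with 8 without WT replicate 3, 9 without MSLN-KO replicate 2 and 10 without MSLN-KO replicate 1. With each library rescaled to its column total, 11 were lower and 5 higher instead of 19 and 3, and among the core genes none were lower and 3 higher. The median of the core genes was between 0.07 and 0.15 in the 17 analyses, and that of the supernumerary genes between -0.21 and -0.15.

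Among the core genes, NDUFS7, which holds the last iron-sulfur cluster before coenzyme Q, was at 43.7, 35.8 and 42.2 CPM in WT and 53.8, 52.2 and 43.3 CPM in MSLN-KO (log2 change 0.29, SE 0.09, adjusted p = 0.022). MSLN-KO replicate 3 overlapped the WT libraries, and without WT replicate 2 the change was 0.20 and no longer called (adjusted p = 0.08, range over alternatives 0.0036 to 0.12). Leaving out MSLN-KO replicate 1 or 2 also ended the call (adjusted p = 0.1 and 0.073), as did subtracting the change of its neighbours (0.19, adjusted p = 0.12).

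NDUFS3, a core gene of the same module, was the 1 that fell, from 61.0, 55.0 and 58.0 CPM to 50.2, 50.7 and 51.4 CPM (log2 change -0.19, SE 0.06, adjusted p = 0.022). It was not called without WT replicate 1 or 3, without MSLN-KO replicate 1 or 2, with column totals, or with the change of its neighbours subtracted. The flavin-binding NDUFV1 was at 155.5 ± 11.6 CPM in WT and 158.3 ± 9.41 in MSLN-KO, and its partner NDUFV2 at 81.7 ± 4.02 and 82.6 ± 4.28 (SD, n = 3 each). NDUFS1, the largest iron-sulfur subunit, was at 158.1 ± 3.92 and 171.9 ± 6.47 CPM (adjusted p = 0.081), and NDUFS8 at 36.4 ± 5.16 and 41.3 ± 1.90 (adjusted p = 0.11). The 3 NDUFV genes, of which NDUFV3 is supernumerary, were all within the spread of their libraries.

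**Figure D3:**
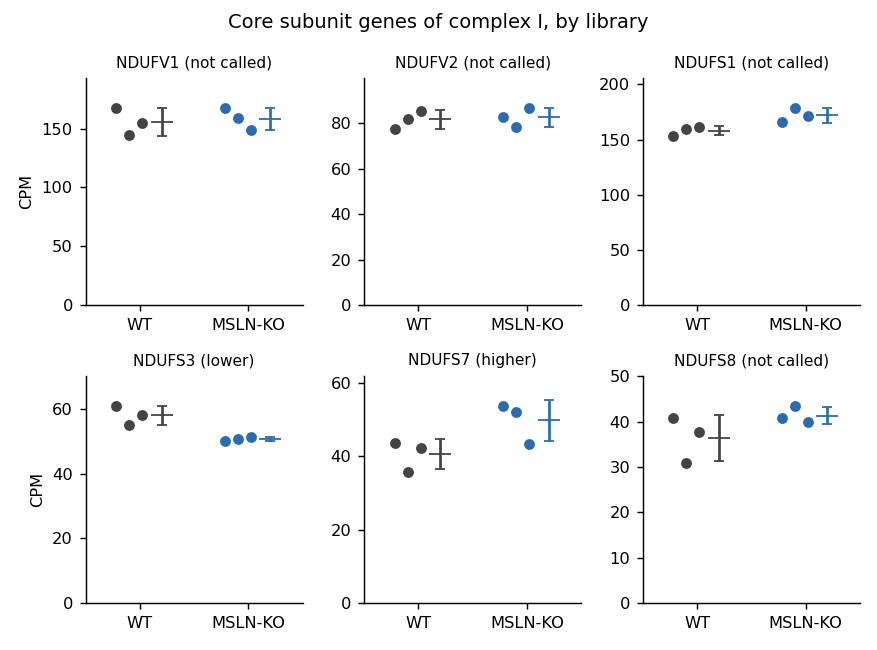
CPM (vertical axis, from 0) of nuclear core genes of complex I in each library, WT in grey and MSLN-KO in blue, with the mean and SD beside the points. NDUFS7 was called higher and NDUFS3 lower; the 3 MSLN-KO points of NDUFS3 lie at 50.2 to 51.4, below the WT points at 55.0 to 61.0.

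The strongest falls in complex I were in supernumerary genes of the membrane arm. NDUFB9 was at 144.4, 138.4 and 152.2 CPM in WT and 91.6, 90.8 and 106.6 CPM in MSLN-KO, 66.5% of WT (log2 change -0.59, SE 0.07, adjusted p = 1.6e-05). NDUFB8 was at 78.5, 75.4 and 83.5 CPM in WT and 57.3, 56.2 and 53.7 CPM in MSLN-KO, 70.4% of WT (log2 change -0.50, SE 0.06, adjusted p = 2.2e-05). In both genes the groups were well apart. Of the 11 listed NDUFB genes, whose products sit in the membrane arm, 8 fell (72.7%, against 23.3% of all listed genes) and 3 were not called. Their log2 changes ran from -0.59 to -0.04.

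NDUFS6, a zinc-binding accessory subunit of the matrix arm, was at 65.4, 58.0 and 63.7 CPM in WT and 50.3, 46.6 and 45.6 CPM in MSLN-KO (log2 change -0.38, SE 0.07, adjusted p = 0.00044). NDUFA2, another accessory subunit of the matrix arm, was at 35.7, 32.8 and 38.8 CPM in WT and 27.4, 28.3 and 27.1 CPM in MSLN-KO (log2 change -0.36, SE 0.07, adjusted p = 0.0015). NDUFC1, a small membrane subunit, was at 20.8, 20.9 and 22.6 CPM in WT and 16.2, 16.9 and 16.5 CPM in MSLN-KO (log2 change -0.36, SE 0.07, adjusted p = 0.0017). All 3 were free of overlap between groups. The mitochondrial acyl carrier protein NDUFAB1, which also serves lipoic acid synthesis, fell to 81.1% of WT (adjusted p = 0.0043).

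NDUFA5, an accessory subunit of the matrix arm, was the supernumerary gene that rose, from 30.7, 31.4 and 32.4 CPM in WT to 36.4, 35.7 and 41.5 CPM in MSLN-KO (log2 change 0.26, SE 0.07, adjusted p = 0.011). Its groups did not overlap. With the median change of its neighbours within 5 Mb subtracted, its change was 0.02 (adjusted p = 0.85, range over alternatives 0.0065 to 0.85). Of the 13 NDUFA genes in complex I, 5 fell (38.5%), 1 rose (7.7%) and 7 were not called, where 23.3% of all listed genes fell and 22.4% rose. Both NDUFC genes fell, but NDUFC2 (limma adjusted p = 0.039) was not called with column totals (limma adjusted p = 0.11).

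Complex II, succinate dehydrogenase, joins the chain to the citric acid cycle and has no subunit from mitochondrial DNA. SDHA, the flavoprotein that oxidises succinate, was at 221.2, 207.3 and 223.4 CPM in WT and 173.0, 170.4 and 149.8 CPM in MSLN-KO, 75.7% of WT (log2 change -0.40, SE 0.06, adjusted p = 0.00021). The membrane anchor SDHC was at 43.9, 46.2 and 49.1 CPM in WT and 37.2, 35.6 and 33.2 CPM in MSLN-KO (log2 change -0.38, SE 0.07, adjusted p = 0.00059). The other anchor, SDHD, was at 152.3, 150.6 and 160.7 CPM in WT and 124.1, 124.9 and 132.4 CPM in MSLN-KO (log2 change -0.28, SE 0.05, adjusted p = 0.001). These 3 genes showed no overlap and stayed called in each alternative analysis. SDHB, the iron-sulfur subunit between them, was at 76.6, 76.5 and 83.7 CPM in WT and 73.4, 76.7 and 70.8 CPM in MSLN-KO (log2 change -0.10, SE 0.06, adjusted p = 0.2), and its groups overlapped. Summed over the 4 genes, CPM was 80.6% of WT, the lowest of the complexes. SDHA could share reads with its pseudogene copies, so its level is uncertain to that extent.

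Complex III passes electrons from coenzyme Q to cytochrome c. Of its 10 listed genes 8 fell (80.0%, against 23.3% of all listed genes), all within a narrow band of log2 changes from -0.38 to -0.21. For 9 of the 10, every MSLN-KO library lay below every WT library, against 28.1% of all listed genes. UQCRH, the acidic hinge protein that helps bind cytochrome c, was at 198.0, 209.0 and 218.4 CPM in WT and 163.6, 170.8 and 162.4 CPM in MSLN-KO (log2 change -0.33, SE 0.05, adjusted p = 0.00032). UQCRQ, a small subunit bound near cytochrome b, was at 51.7, 46.3 and 52.4 CPM in WT and 40.3, 37.3 and 37.4 CPM in MSLN-KO (log2 change -0.38, SE 0.07, adjusted p = 0.00064). UQCRB, another small subunit by the coenzyme Q pocket, was at 176.2, 185.7 and 192.2 CPM in WT and 143.6, 136.6 and 157.4 CPM in MSLN-KO (log2 change -0.34, SE 0.06, adjusted p = 0.00067). In each of the 3 the lowest WT library was above the highest MSLN-KO library.

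UQCR10, a small membrane subunit, was at 64.4, 58.0 and 66.9 CPM in WT and 52.3, 51.2 and 45.1 CPM in MSLN-KO (log2 change -0.34, SE 0.07, adjusted p = 0.0021). UQCRHL, a near copy of UQCRH, was at 10.9, 10.4 and 11 CPM in WT and 7.38, 8.29 and 9.11 CPM in MSLN-KO (log2 change -0.35, SE 0.10, adjusted p = 0.0096). Reads could be split between these copies, so the UQCRHL value is uncertain, and without MSLN-KO replicate 1 it was not called (adjusted p = 0.057, range over alternatives 0.0052 to 0.057). The catalytic subunits moved too: CYC1, which carries the haem that reduces cytochrome c, fell to 81.5% of WT (adjusted p = 0.0094) and the Rieske iron-sulfur protein UQCRFS1 to 86.3% (adjusted p = 0.0086). The core protein UQCRC1 fell to 83.6% (adjusted p = 0.013), while its partner UQCRC2 was at 225.7 ± 5.96 CPM in WT and 217.8 ± 10.9 in MSLN-KO (adjusted p = 0.47). UQCRFS1 and UQCRC1 were each not called in at least 1 alternative (limma adjusted p up to 0.054 and 0.066). UQCR11 was at 51.0 ± 1.21 and 47.0 ± 1.22 CPM (adjusted p = 0.13).

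The carrier between complexes III and IV, CYCS, was at 157.8, 149.1 and 165.3 CPM in WT and 134.2, 132.2 and 145.4 CPM in MSLN-KO, 87.2% of WT (log2 change -0.20, SE 0.06, adjusted p = 0.016). Its groups did not overlap. The call was lost when WT replicate 3 was left out (adjusted p = 0.08), and likewise with the first (0.072) or second (0.069) MSLN-KO library left out, in a range over alternatives of 0.0062 to 0.08.

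Complex IV, cytochrome c oxidase, held both the deepest fall and the highest rise of all members. COX5A, a nuclear subunit on the matrix side, was at 70.6, 69.2 and 73.8 CPM in WT and 41.8, 40.9 and 42.9 CPM in MSLN-KO, 58.8% of WT (log2 change -0.75, SE 0.06, adjusted p = 3.7e-07). It is the 1 member on chromosome 15 (74919791 to 74938168, minus strand, GRCh38), where 308 of 371 listed genes were lower with a median log2 change of -0.57. The 58 other listed genes within 5 Mb of it had a median of -0.54, and with that subtracted its change was -0.21 (adjusted p = 0.0081, range over alternatives 3.2e-07 to 0.0081). The 3 MSLN-KO libraries were tightly grouped and far below WT.

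COX6C, a small membrane subunit, was at 99.4, 110.9 and 107.9 CPM in WT and 73.0, 68.9 and 80.7 CPM in MSLN-KO (log2 change -0.51, SE 0.07, adjusted p = 5.3e-05). COX7B, another membrane subunit, was at 103.6, 102.2 and 110.8 CPM in WT and 77.6, 74.9 and 80.6 CPM in MSLN-KO (log2 change -0.44, SE 0.06, adjusted p = 4.5e-05). COX6A1, the isoform of the COX6A subunit found outside muscle, was at 102.7, 93.8 and 110.5 CPM in WT and 76.9, 80.0 and 69.3 CPM in MSLN-KO (log2 change -0.43, SE 0.07, adjusted p = 0.00031). In all 3, every WT library was above every MSLN-KO library. COX5B and COX6B1 fell to 87.6% and 88.1% of WT (adjusted p = 0.024 each). Neither was called with column totals (adjusted p = 0.052 and 0.053), and their adjusted p reached 0.11 and 0.10 over the alternatives. COX4I1, COX7C and COX8A lay at 93.9%, 93.5% and 94.6% of WT and were not called, COX4I1 being among the first nuclear subunits to join the catalytic core.

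The 2 genes of complex IV that rose belong to pairs whose relatives did not rise. NDUFA4, a subunit of complex IV, was at 85.7, 84.9 and 93.8 CPM in WT and 72.1, 71.5 and 76.4 CPM in MSLN-KO (log2 change -0.26, SE 0.06, adjusted p = 0.0033). Its relative NDUFA4L2, known as a hypoxia-inducible gene that lowers complex I activity, was at 2.04, 0.774 and 0.843 CPM in WT and 12.9, 16.3 and 13.6 CPM in MSLN-KO, an 11.73-fold difference in mean CPM (log2 change 2.82, SE 0.18, adjusted p = 5.8e-08). These are 50, 20 and 20 reads in WT and 333, 433 and 434 reads in MSLN-KO. NDUFA4L2 entered the table only through its MSLN-KO libraries, so a gene at its WT level had to differ to be listed. Per length of the annotated principal transcript, NDUFA4L2 stood at 2.48% of NDUFA4 in WT and at 35% in MSLN-KO. NDUFA4 was not called once the change of its neighbours was subtracted (log2 change -0.13, adjusted p = 0.1, range over alternatives 0.0028 to 0.1).

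COX7A2, a membrane subunit of complex IV, was at 99.9, 100.8 and 107.4 CPM in WT and 95.8, 94.9 and 88.5 CPM in MSLN-KO (log2 change -0.14, SE 0.06, adjusted p = 0.06). COX7A2L, which tethers complexes III and IV in supercomplexes, was at 61.6, 60.1 and 59.3 CPM in WT and 80.1, 83.3 and 88.6 CPM in MSLN-KO, 139.2% of WT (log2 change 0.47, SE 0.06, adjusted p = 2.8e-05). Neither gene's groups overlapped, and the genes lay on opposite sides of WT. The ratio of COX7A2L to COX7A2 was 0.616, 0.596 and 0.552 in WT and 0.836, 0.878 and 1.0 in MSLN-KO. COX7A2 was called lower when the change of its neighbours was subtracted (log2 change -0.22, adjusted p = 0.0084, range over alternatives 0.0084 to 0.21).

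Complex V, the ATP synthase, fell in most of its parts. Of the 5 genes of the catalytic F1 head, 4 fell (80.0%, against 23.3% of all listed genes). For 3 of them (ATP5F1B, ATP5F1C and ATP5F1E) the adjusted p was 0.028 to 0.047. With column totals, without the variance trend, with the replicate number as a block or without WT replicate 3, 1 of the 5 was called lower. The same held without MSLN-KO replicate 1 or 2. Without WT replicate 1, 2 were called lower, and 3 were with median centring or without MSLN-KO replicate 3. ATP5F1A, the alpha subunit, was at 754.2, 742.3 and 797.0 CPM in WT and 560.6, 560.9 and 551.3 CPM in MSLN-KO, 72.9% of WT (log2 change -0.45, SE 0.05, adjusted p = 1.9e-05). Its catalytic partner in the same ring, the beta subunit ATP5F1B, was at 753.9, 739.6 and 805.3 CPM in WT and 710.5, 702.3 and 649.6 CPM in MSLN-KO, 89.7% of WT (log2 change -0.16, SE 0.06, adjusted p = 0.047). Both had no overlap between groups, and the difference between their changes was not tested. The rotor subunits ATP5F1C (gamma) and ATP5F1E (epsilon) fell to 90.0% and 90.2% of WT, and ATP5F1D (delta) was at 21.2 ± 1.8 CPM in WT and 23.3 ± 1.87 in MSLN-KO (adjusted p = 0.23).

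The stalk and the small membrane subunits followed. ATP5MF, the membrane subunit f, was at 103.8, 90.1 and 107.8 CPM in WT and 70.8, 73.5 and 68.0 CPM in MSLN-KO (log2 change -0.50, SE 0.07, adjusted p = 7.9e-05). ATP5PF, a coupling factor in the peripheral stalk, was at 57.2, 58.5 and 63.3 CPM in WT and 45.3, 43.1 and 47.6 CPM in MSLN-KO (log2 change -0.39, SE 0.06, adjusted p = 0.00032). In both the groups were apart. Of the 4 stalk genes, ATP5PB also fell, to 82.8% of WT, while ATP5PD (90.0% of WT, adjusted p = 0.064) and ATP5PO (94.4%, adjusted p = 0.27) were not called. ATP5MK, ATP5MJ and ATP5ME of the membrane part fell to 77.6%, 78.8% and 87.1%, and ATP5MG was at 101.1%. ATP5ME was not called with column totals (adjusted p = 0.076, range over alternatives 0.0085 to 0.14). The readthrough gene ATP5MF-PTCD1 shares exons with ATP5MF, so reads could be split between them, and it was at 11.1 ± 1.24 CPM in WT and 10.5 ± 1.34 in MSLN-KO. The inhibitor ATP5IF1, which blocks ATP hydrolysis when the gradient is lost, was at 61.1 ± 4.67 and 54.0 ± 2.49 CPM (adjusted p = 0.052; SD, n = 3 each).

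The c ring, the rotor that turns in the membrane, is made from 3 genes that encode the same mature protein with different import sequences. ATP5MC3 was at 178.7, 163.2 and 191.8 CPM in WT and 126.4, 132.0 and 121.0 CPM in MSLN-KO (log2 change -0.49, SE 0.06, adjusted p = 5.1e-05). ATP5MC1 was at 34.4, 27.6 and 32.4 CPM in WT and 26.2, 23.5 and 22.6 CPM in MSLN-KO (log2 change -0.37, SE 0.09, adjusted p = 0.0049). ATP5MC2 went the other way, from 257.6, 239.4 and 237.6 CPM to 297.3, 300.8 and 277.1 CPM (log2 change 0.25, SE 0.06, adjusted p = 0.0028). All 3 had no overlap between groups. Their summed CPM was 470.8, 430.1 and 461.7 in WT and 449.9, 456.3 and 420.7 in MSLN-KO, which overlapped. The share of ATP5MC2 in that sum, not corrected for transcript length, was 54.7%, 55.7% and 51.5% in WT and 66.1%, 65.9% and 65.9% in MSLN-KO.

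Ratios of related genes were compared for 3 pairs. On the log2 scale the ratio was higher in MSLN-KO by 0.62 for COX7A2L to COX7A2, by 0.63 for ATP5MC2 to ATP5MC1 and by 0.74 for ATP5MC2 to ATP5MC3, with each of the 3 MSLN-KO libraries above every WT library. An exact two-sided permutation test gave p = 0.1 for each (0.1 after Benjamini-Hochberg adjustment over the 3), which is the smallest p that 3 against 3 libraries allow, so no ratio could pass a threshold of 0.05. In each pair the genes already lay apart between groups in opposite directions. Each ratio therefore had to separate, the result of the test was fixed in advance, and it adds nothing to the values of the genes. For NDUFA4L2 to NDUFA4 the log2 ratio differed by 3.96, given with no test because NDUFA4L2 was listed only through its MSLN-KO libraries.

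**Figure D4:**
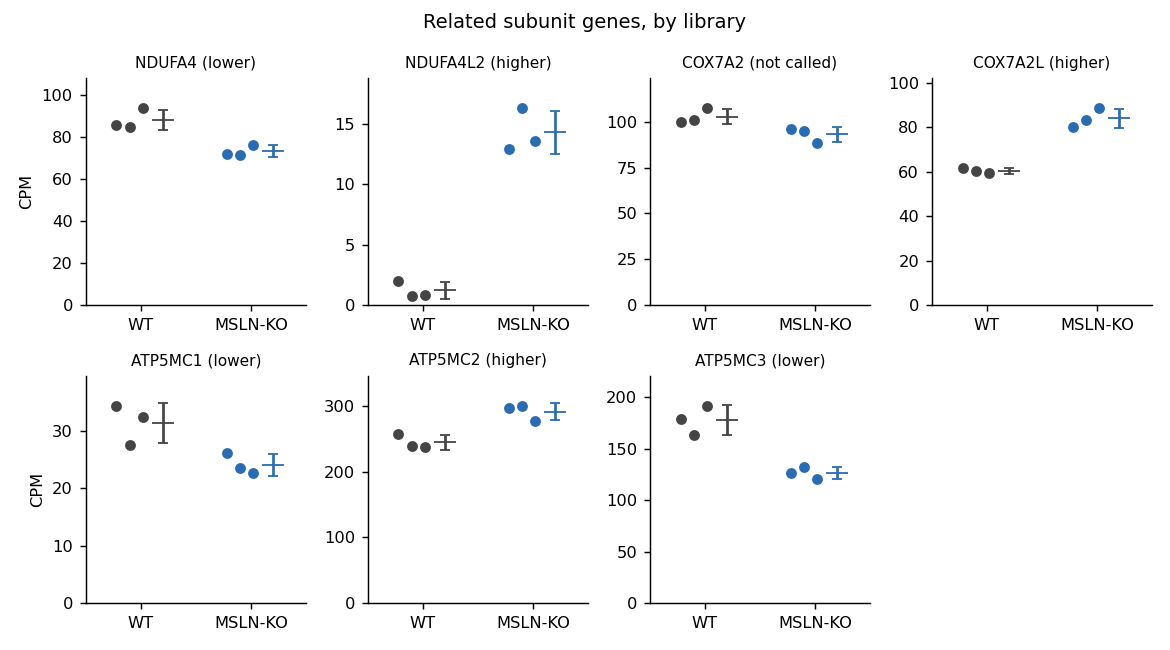
CPM (vertical axis, from 0) in each library for genes with a related member in the chain, WT in grey and MSLN-KO in blue, with the mean and SD beside the points. NDUFA4L2, COX7A2L and ATP5MC2 were called higher, while NDUFA4, ATP5MC1 and ATP5MC3 were called lower and COX7A2 was not called.

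Where the members sit in the genome was set against the other genes there. NDUFB9, UQCRB, COX6C and CYC1 lie on chromosome 8, and 4 of 4 fell, with a median log2 change of -0.43, where 38.6% of the 386 listed genes of the chromosome fell with a median of -0.10. Of the 10 members on chromosome 19, 2 fell, 1 rose and 7 were not called, with a median of -0.04. There 9.5% of 813 listed genes fell, 36.8% rose and the median was 0.15. Of the 6 members on chromosome 5, 5 fell, with a median of -0.37, where 28.5% of its 512 listed genes fell with a median of -0.05. With the median change of the neighbours within 5 Mb subtracted from every gene, 53 members were lower and 5 higher instead of 50 and 6.

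The 12 listed subunit genes of mitochondrial DNA were called in both directions, at shares not far from those of the table. Of these, 3 fell (25.0%, against 23.3% of all listed genes), 4 rose (33.3%, against 22.4%) and 5 were not called, with a median log2 change of -0.12. MT-CO2 of complex IV was at 865.9, 899.5 and 930.7 CPM in WT and 779.6, 791.7 and 723.7 CPM in MSLN-KO, a log2 change of -0.23 (adjusted p = 0.0061), and MT-CO1 and MT-ND4 fell by 0.22 each. MT-ND3 of complex I was at 211.9, 223.7 and 213.1 CPM in WT and 285.0, 294.9 and 285.3 CPM in MSLN-KO, a log2 change of 0.41 (adjusted p = 2.5e-05), and MT-ND2 and MT-ND1 rose by 0.28 and 0.18. Genes of complex I were thus on both sides of WT here, as among the nuclear core genes, with MT-ND4 alone called on the lower side. Of the genes named here, MT-ND4, MT-ND1 and MT-CO1 each lost their call in at least 1 alternative (limma adjusted p up to 0.093, 0.1 and 0.14).

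The genes that build the complexes were called in both directions, where 23.3% of all listed genes fell and 22.4% rose. Of the 19 assembly factors of complex I, 6 fell (31.6%) and 2 rose (10.5%; median log2 change 0.04), with NDUFAF1 at -0.58 on chromosome 15, NDUFAF8 at -0.42 and NDUFAF6 at -0.40, and with DMAC2 at 0.24 and NDUFAF7 at 0.21. Of the 25 listed of 26 for complex IV, 4 fell (16.0%) and 6 rose (24.0%; median 0.00), with COX16 at -0.45, COX14 at -0.29 and PET100 at -0.24, and with SURF1, which is mutated in Leigh syndrome, at 0.51, PET117 at 0.40 and COX19 at 0.34. Of the 15 listed of 18 for complexes II, III and V, 3 fell (20%) and 5 rose (33.3%; median 0.09), with UQCC4 at -0.32, ATPAF2 at -0.28 and ATPAF1 at -0.22, and with TMEM70, an assembly factor of complex V, at 0.51, SDHAF1 at 0.30 and UQCC3 at 0.29. None of these medians was as low as the -0.19 of the subunit genes, and the difference was not tested.

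Genes that feed the chain and control it were also called in both directions, with 12.5% to 40.0% lower and 10% to 25.0% higher per list, against the same 23.3% and 22.4%. Of the 12 listed of 14 genes of coenzyme Q synthesis, 2 fell (PDSS1 at -0.34 and COQ2 at -0.22) and 3 rose (COQ8B at 0.39, COQ10B at 0.31 and COQ8A at 0.23), with a median of -0.09. Of the 10 listed of 13 in a list of other electron donors and of factors that import or load chain proteins, 4 fell and 1 rose (median -0.02), led by SQOR at -0.92 and ETFA at -0.69, which lie on chromosome 15, and by GPD2 at -0.24, with GFER at 0.31. Of the 20 listed of 21 genes of mitochondrial DNA maintenance and transcription, 3 fell and 4 rose (median -0.05): the mitochondrial DNA polymerase POLG, on chromosome 15, was at -0.81, SLIRP at -0.39 and MTERF1 at -0.29, and FASTK was at 0.51, the mitochondrial RNA polymerase POLRMT at 0.47 and POLG2 at 0.28. Of the 16 listed of 17 transcriptional regulators, 2 fell and 4 rose (median 0.05), with GABPB1, on chromosome 15, at -0.30 and THRA at -0.23, and with MYC at 0.48, GABPB2 at 0.40 and ESRRA at 0.27. With the median change of the neighbours within 5 Mb subtracted, GABPB1 was called higher instead of lower (0.27), and among the other genes named from these lists NDUFAF1 (-0.01), NDUFAF6 (-0.27), DMAC2 (0.10), PET117 (0.35), SDHAF1 (0.08), COQ2 (-0.08), ETFA (-0.09) and MTERF1 (-0.06) were not called.

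**Figure D5:**
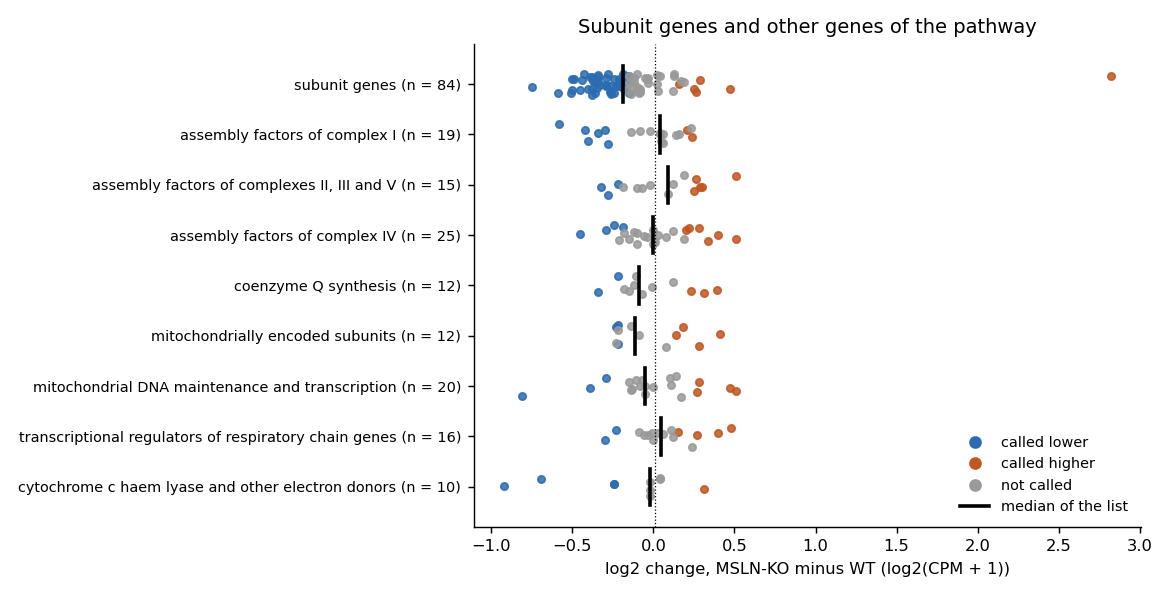
Log2 change in MSLN-KO against WT (horizontal axis, log2(CPM + 1) scale) for the subunit genes and 8 lists of related genes, each point a gene, coloured by call, with a black bar at the list's median and a dotted line at the median of all listed genes (0.01). The median of the subunit genes lies at -0.19, and those of the 8 lists between -0.12 and 0.09.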

How the data were processed

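RNA from 3 WT and 3 MSLN-KO libraries was sequenced; per the labels' protocols these were stranded total RNA libraries depleted of ribosomal RNA. The tools the authors used were STAR, featureCounts and edgeR on GRCh38, per the submitters' processing notes. Their versions, annotation and strand setting are not given in the sources, so overlapping and antisense genes are uncertain. The authors deposited 1 table of TMM-scaled CPM for 11363 genes, whose columns sum to between 967718 and 1009572; in each, 100% of values were whole multiples of the worth of 1 read (within 0.01 of it), from which read numbers were taken; they rest on that step, as the table lists too few values near 1 read to check it further. Every column belongs to a sample.

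Symbols matched 11354 genes and coordinates (GENCODE release 29, 1-based) 11314. From the CPM, log2(CPM + 1) was fitted with limma 3.58.1 (R 4.3.3, lmFit and eBayes with an intensity trend) over the 6 libraries and all genes, without covariates. Calls are two-sided at a Benjamini-Hochberg adjusted p under 0.05. A minimum mean of 0.5 CPM removed no gene (smallest mean 2.85). This scale understates changes of low genes; folds and percentages are ratios of mean CPM. The fit was tested on simulated data. Within groups, no 2 libraries agreed within sampling noise (chi-square over its degrees of freedom, 2.71 to 14.8). Python 3.11.15 served for the rest.

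The members and lists were chosen with earlier results of these data known, so no list has a test. Named with full values were, per complex, the 5 largest calls in its main direction and the 2 largest in the other, all of complex II, CYCS, related isoforms and members on chromosome 15; in other lists, up to 3 calls in each direction. Other members are given by their role. The values of 1 member, which stays in the counts, medians and sums, are not reported here. Promoter sequences are RefSeq's (GRCh38.p14).

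Alternatives varied the scaling, pseudocount, low-value filter and variance trend, added a replicate block, left out chromosome 15 or each library in turn and, added after seeing the data, subtracted the median change of genes within 5 Mb.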

Additional observations from a re-analysis of the deposited data

How the results depend on the processing

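Of the counts of genes lower per whole complex, that of complex I moved most. It went from 19 genes lower to 11 when each library was rescaled to its column total, and to between 8 and 18 when 1 library was left out. The count of all subunit genes lower went from 50 to between 31 (without WT replicate 3) and 51 with 1 library left out, and was 36 with column totals, 41 without the variance trend and 53 with the change of neighbours subtracted. The counts of genes lower in complexes II to V and of all subunit genes higher stayed within 1.5 times of the reported ones in the alternatives run, while complex I genes higher went from 3 to between 1 and 5. Complex V reached that limit, with 8 of 19 genes lower instead of 12. This was so with column totals, without the variance trend, and without WT replicate 3 or MSLN-KO replicate 1 or 2. With the replicate number as a block, 46 subunit genes were lower and 6 higher; 5 calls were lost and 1 gained. Same-numbered libraries did not deviate together (correlations 0.192, -0.169 and -0.0917), so the numbers are not taken as pairs. Among the members named by rule, NDUFS7, CYCS, UQCRHL, NDUFA4 and NDUFA5 lost their call and COX7A2 gained one in at least 1 alternative. Many genes named from the other lists lost theirs too, such as MT-CO1 and THRA (limma adjusted p up to 0.14 each) and NDUFAF7 (up to 0.11). The cause of these moves was not tested. The planned tests on counts were not run: the table holds CPM, and too few of its values lie near 1 read to secure the read unit. Depth limits NDUFA4L2 in WT, where it rests on 20 to 50 reads a library. The median coefficient of variation of a member between libraries was 5.6% in WT and 4.6% in MSLN-KO.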
